A study of Mus musculus with 5 samples.

Results

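The mRNAs described here encode the eIF4G scaffolds (Eif4g1, Eif4g2, Eif4g3) and the eIF4E-binding repressors (Eif4ebp1, Eif4ebp2, Eif4ebp3). All these proteins except eIF4G2 compete for the cap-binding protein eIF4E. The genes were picked by name, and all 6 were present among the 49875 gene IDs of the table. The data came from RNA immunoprecipitation followed by sequencing, in which RNA recovered together with an antibody's target protein is sequenced. The samples were wild-type mouse cerebral cortex at E13.5, a stage of cortical neuron production, labelled both neocortex and forebrain, and the cytoplasmic supernatant of the dissociated cells was the starting material. There were 2 libraries from precipitates with an antibody against eIF4E, 1 from a control precipitate with rabbit immunoglobulin G (IgG), and 2 of Input, the supernatant before precipitation. The eIF4E and Input libraries were labelled biological replicates, without word on which embryos or pools they came from, so the p-values reflect how far these particular libraries spread, which may be technical.

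eIF4E holds the 5′ cap of an mRNA, and eIF4G binds eIF4E, the helicase eIF4A and, through eIF3, the small ribosomal subunit, so that a capped mRNA can be scanned for its start codon. The 4E-binding proteins (4E-BPs) occupy the surface of eIF4E that eIF4G uses and so block this assembly. The kinase complex mTORC1, which is controlled at the lysosome, phosphorylates them and releases eIF4E. eIF4G2, also called DAP5 or p97, resembles the other scaffolds but lacks the stretch that binds eIF4E, and it serves translation that does not rely on eIF4E. All values concern the mRNAs of these genes, not their proteins.

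Values are RSEM abundances per transcript length, either TPM or FPKM (the header does not say which), so levels of different genes can be compared within a library. The whole level of one library against another depends on the unit. The sequencing depth is unknown. Column totals were 718857 and 708778 in eIF4E, 560076 in IgG, and 838759 and 848550 in Input. The IgG library stood apart: of 5403 genes above 10 in each eIF4E and Input library, it listed 360 at 0. Comparisons with it rest on 1 library, whose variance is taken from the other 4. How much RNA each precipitate held is unknown, so a higher value than in IgG is a higher share, not a higher amount. The markers of dorsal forebrain progenitors and neurons (Emx1, Pax6, Tbr1 and 7 others) were above 0 in every library. Their 10 values summed to 2060 and 2035 in eIF4E, 1684 in IgG, and 2358 and 2401 in Input. Tubb3 (945.71 and 979.5) and Hes5 (600.09 and 610.55) made up most of the Input sums. Of the 10, 6 were higher and 3 lower in eIF4E than in Input, beside 43.3% and 30.6% of all genes tested. The sums therefore hide shifts in both directions. Markers of red blood cells were present too. Their 6 values summed to 5579 and 4266 in eIF4E, 2300 in IgG, and 15619 and 17018 in Input. All 6 passed as lower in eIF4E than in Input, beside 30.6% of all genes tested. Hba-a1 and Hbb-y made up most of each sum. The IgG library was below Input for 5 of the 6, but Alas2 was highest there, at 238.61. Alas2 measured 69.9 and 71.12 in Input, against 31 and 29.66 in eIF4E. Of 6 microglial markers, 4 were at 0 in IgG and none in the other libraries. Their values summed to 16.68 and 11.13 in eIF4E, 21.97 in IgG, and 25.24 and 29.59 in Input. The IgG sum was nearly all C1qb (21.85). All 3 choroid plexus markers were at 0 in IgG, and Kl also in both eIF4E libraries. IgG listed fewer genes above 0 (11825) than any other library (17412 to 18745), so these counts of zeros are no result on their own. The libraries hold RNA of a supernatant or of precipitates, so a lower marker value need not mean fewer cells. Fewer cells of a type, less RNA per cell and less recovery in a precipitate cannot be told apart here. Whether these shifts took part in the results below was not tested.

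Against Input, the mRNAs of all 3 scaffolds were higher in eIF4E, by 3.95-fold to 11.8-fold, whereas Eif4ebp1 mRNA was lower, at 0.504 of Input, and Eif4ebp2 mRNA did not pass the test. Of all genes tested, 43.3% were higher and 30.6% lower than Input. Against IgG, Eif4g1 and Eif4g3 were higher by 2.66-fold and 2.47-fold, and both repressors were lower, at 0.71 and 0.463. Eif4g2 was nearly as high in IgG as in eIF4E, and its rise of 1.24-fold was lost under some settings. Eif4ebp3 was listed at 0 in all 5 libraries and entered no test.

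**Figure D1:**
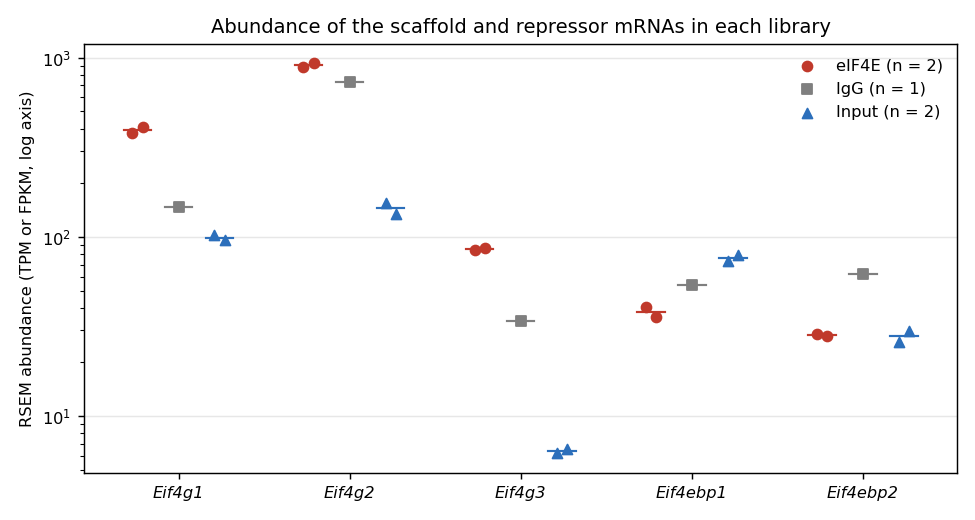
Abundance (RSEM value, TPM or FPKM, log axis) of 5 of the 6 mRNAs in each library, with horizontal lines at group means. Eif4ebp3 is 0 in every library and cannot be drawn on this axis. All 3 scaffolds are highest in the 2 eIF4E libraries, Eif4ebp1 is lowest there, and Eif4ebp2 is highest in IgG.

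Eif4g1 encodes the main scaffold, eIF4GI (chromosome 16, 20672720 to 20692883, GRCm38). Its mRNA measured 379.83 and 407.04 in the eIF4E libraries, 147.18 in IgG, and 101.93 and 95.92 in the Input libraries. The groups did not overlap, and IgG lay nearer to Input than to eIF4E. The rise over Input was 3.95-fold on the scale of value + 1, used for all fold changes here (log2 1.98, SE 0.06, limma adjusted p = 6.6e-05), and that over IgG was 2.66-fold (log2 1.41, SE 0.07, limma adjusted p = 7.9e-05). Its log2 fold change exceeded that of 93.1% of the 12769 genes tested against Input and of 70.7% against IgG. The gene contains the small nucleolar RNA gene Snord66, whose reads could not be kept apart from those of the host where both overlap.

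Eif4g3 encodes eIF4GII, a second scaffold that binds eIF4E (chromosome 4, 137991779 to 138207086). It was the scarcest scaffold mRNA in Input, and its rise over Input was the largest of the 3 with the pseudocount of 1, though not with 10. Values were 84.49 and 86.15 in eIF4E, 33.94 in IgG, and 6.18 and 6.51 in Input. The eIF4E libraries stood far above both others, and IgG in between. Against Input the rise was 11.8-fold (limma log2 3.56, SE 0.06, adjusted p = 4.7e-05), above that of 99.7% of genes tested. Against IgG it was 2.47-fold (SE 0.08 on the log2 scale, limma adjusted p = 1.1e-04), above that of 68.1%. Because the Input value is low, the size depends on the pseudocount: with 10 in place of 1, the log2 rise over Input was 2.54, below the 2.57 of Eif4g2.

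Eif4g2 encodes DAP5 (chromosome 7, 111067985 to 111083030). It was the most abundant of the 6 mRNAs in every library, at 882.92 and 926.42 in eIF4E, 726.98 in IgG, and 154.44 and 134.17 in Input. Both precipitates were far above Input, and eIF4E was only slightly above IgG. The rise over Input was 6.25-fold (log2 2.64, SE 0.08, adjusted p = 6.6e-05 with limma). Over IgG it was 1.24-fold (log2 0.31, SE 0.10, adjusted p = 0.032). That small difference did not hold up: its log2 value was −0.27 after quantile normalization and −0.03 after rescaling to the same total, and the call was lost without eIF4E replicate 1 (log2 0.35, adjusted p = 0.0742) or replicate 2 (0.28, adjusted p = 0.118). Another annotated locus, LOC115486847, overlaps the gene, and the protocol does not mark strand.

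Eif4ebp1 encodes 4E-BP1, the repressor best known as a read-out of mTORC1 activity (chromosome 8, 27260327 to 27275656). Its values were 40.5 and 35.61 in eIF4E, 53.9 in IgG, and 73.42 and 79.22 in Input. Both eIF4E libraries lay below IgG and further below Input. It fell to 0.504 of Input (log2 −0.99, SE 0.09, limma adjusted p = 5.6e-04) and to 0.71 of IgG (log2 −0.49, SE 0.10, limma adjusted p = 0.0089). Only 7.7% of genes tested had a lower log2 fold change against Input, but 27.8% had a lower one against IgG.

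Eif4ebp2 encodes 4E-BP2, the repressor that prevails in the mature brain (chromosome 10, 61428491 to 61452790). Values were 28.51 and 28.0 in eIF4E, 62.14 in IgG, and 25.95 and 29.65 in Input. The eIF4E values lay inside the Input range, and IgG stood above all 4 others. Against Input the fold was 1.02, with a 95% interval of 0.875 to 1.18 (adjusted p = 0.793, limma). The sign of so small a difference depends on how libraries are scaled, with log2 −0.29 (adjusted p = 0.031) after median-of-ratios scaling and 0.26 (adjusted p = 0.0362) with all libraries brought to 1 total. Against IgG it fell to 0.463 (log2 −1.11, SE 0.10, limma adjusted p = 4.5e-04).

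Eif4ebp3 encodes 4E-BP3, the remaining repressor (chromosome 18, 36664060 to 36666324). It was listed at 0 in each of the 5 libraries. With the depth unknown, its absence from the tissue cannot be inferred.

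Of the 5 mRNAs tested, 3 were thus higher and 1 lower in eIF4E than in Input. Beside 43.3% and 30.6% of all genes, these shares are no result on their own. The median log2 fold change of all genes was 0.16, and relative to it the values were 1.82 for Eif4g1, 2.49 for Eif4g2, 3.40 for Eif4g3, −1.15 for Eif4ebp1 and −0.13 for Eif4ebp2. The split of calls depends on scaling: of the genes called, 58.6% were higher with the values as deposited, 45.7% after median-of-ratios scaling, 45.5% after quantile normalization and 70.3% after rescaling to the same total. Those scalings put the median of all genes at log2 −0.11, −0.11 and 0.36. Under each of the 3, Eif4g1, Eif4g2 and Eif4g3 were higher and Eif4ebp1 was lower in eIF4E than in Input.

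Against IgG, 3 of the 5 were higher and 2 lower, beside 53.1% and 30.6% of all genes tested. The median of all genes was at log2 0.55, and relative to it Eif4g1 lay at 0.86, Eif4g3 at 0.75, Eif4g2 at −0.24, Eif4ebp1 at −1.05 and Eif4ebp2 at −1.66. The share of higher calls was 63.4% as deposited and 48.8% after quantile normalization. Both comparisons use the same eIF4E libraries and are not independent.

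**Figure D2:**
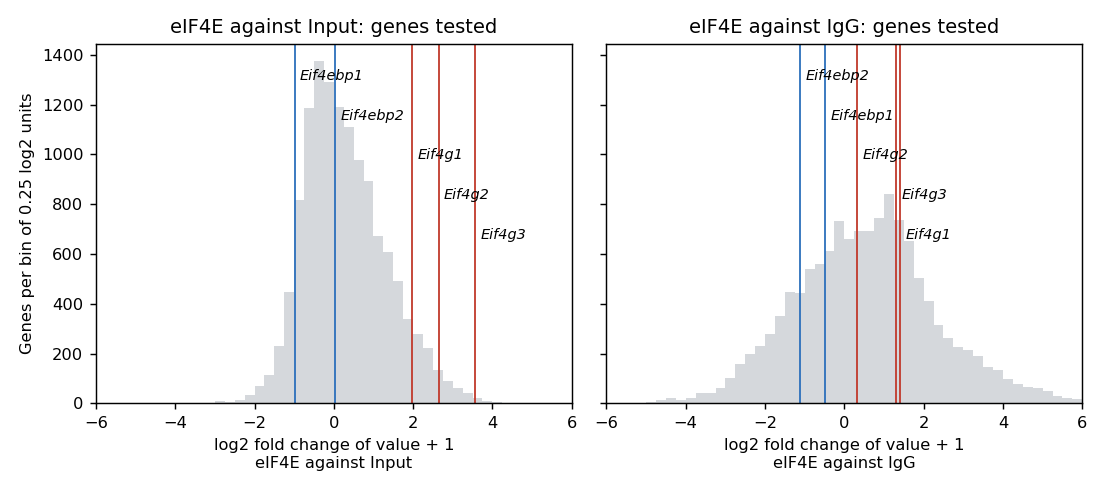
Number of genes tested per bin of 0.25 log2 units against the log2 fold change of value + 1, for eIF4E against Input (left) and eIF4E against IgG (right), with scaffolds (red lines) and repressors (blue lines). The axis leaves out 8 and 48 genes beyond 6 log2 units. Against Input the 3 scaffolds lie in the right tail, while against IgG Eif4g1 and Eif4g3 lie to the right of the middle.

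The control precipitate itself was not neutral for these mRNAs. IgG against Input gave 5.02-fold for Eif4g2 (log2 2.33, SE 0.10, adjusted p = 2.9e-05), 4.76-fold for Eif4g3, 2.20-fold for Eif4ebp2 and 1.48-fold for Eif4g1, each higher in the IgG library. Eif4ebp1 lay at 0.711 (log2 −0.49, adjusted p = 0.00832), a direction that turned after rescaling to the same total (0.09, adjusted p = 0.426). Of the 5 mRNAs, 4 were higher and 1 lower, beside 37.8% and 50.3% of all genes. The rise of Eif4g1 over Input was larger in eIF4E than in IgG, and that of Eif4g2 was 6.25-fold in eIF4E and 5.02-fold in IgG. Some of these sizes depend on settings. Eif4g1 was at log2 0.57 as deposited, at 0.29 (limma adjusted p = 0.0185) after median-of-ratios scaling, and at 1.16 both after quantile normalization and after rescaling to the same total. Eif4g2 reached 3.11 after quantile normalization, Eif4ebp2 was at 1.71 rather than 1.14 after rescaling to the same total, and Eif4g3 at 1.43 rather than 2.25 with a pseudocount of 10.

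**Figure D3:**
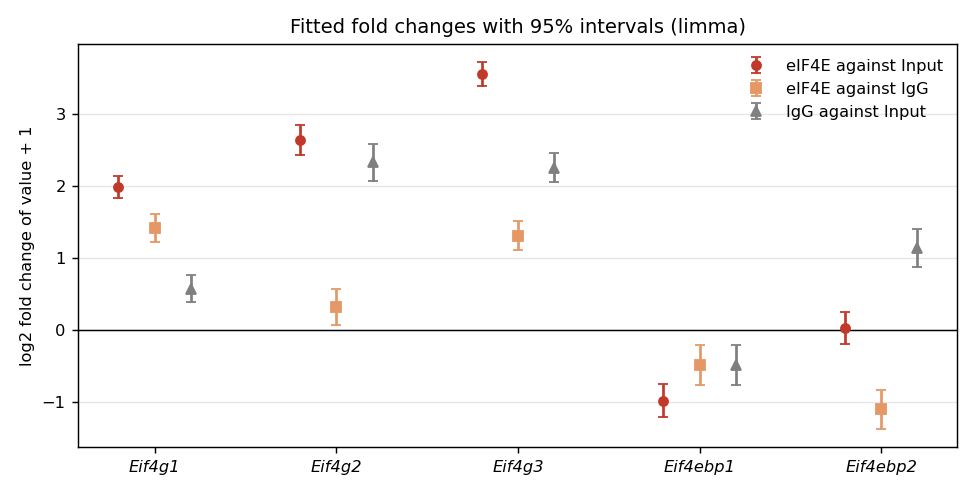
Fitted log2 fold change of value + 1 with its 95% interval (limma, all 5 libraries) in 3 comparisons, eIF4E against Input in red, eIF4E against IgG in orange and IgG against Input in grey. The intervals of Eif4ebp2 for eIF4E against Input span 0, and for Eif4g2 the values against Input nearly coincide in both precipitates.

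Members were then compared with each other inside each library, which removes any scaling between libraries. The ratio of Eif4g3 to Eif4g1 was 0.222 and 0.212 in eIF4E, 0.231 in IgG, and 0.0606 and 0.0679 in Input. It was thus about equally high in both kinds of precipitate and low in Input. In the ratio fit Eif4g3 rose more than Eif4g1 over Input (2.98-fold, log2 1.57, SE 0.09, limma adjusted p = 2.9e-05), and over IgG the difference was 0.929-fold with a 95% interval of log2 −0.40 to 0.18 (adjusted p = 0.421, limma). The first of these sizes again depends on the pseudocount, at log2 0.66 with 10, and with 10 the second passed at log2 −0.24 (adjusted p = 0.045).

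The ratio of Eif4g2 to Eif4g1 was 2.33 and 2.28 in eIF4E, 4.94 in IgG, and 1.52 and 1.40 in Input. IgG held the highest ratio and Input the lowest. Eif4g2 therefore rose more than Eif4g1 over Input (1.58-fold, log2 0.66, SE 0.07, limma adjusted p = 2.9e-04) and less over IgG (0.468-fold, log2 −1.10, SE 0.08, limma adjusted p = 1.2e-04). Of all other genes, 4.16% passed as rising more than Eif4g1 over Input and 88.7% as rising less. Against IgG these shares were 20% and 59.2%. All genes share the deviation of Eif4g1 in this fit, so its p-values may be too small and these shares too high. With the standard errors of both genes combined, the 95% interval of Eif4g2 over Input was log2 0.40 to 0.92 (unadjusted p = 0.00158 from limma errors).

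As shares of the summed scaffold abundance, Eif4g2 held 65.5% and 65.3% in eIF4E, 80.1% in IgG, and 58.8% and 56.7% in Input. Eif4g1 held 28.2% and 28.7% in eIF4E, 16.2% in IgG, and 38.8% and 40.5% in Input. Eif4g3 held 6.27% and 6.07% in eIF4E, 3.74% in IgG, and 2.35% and 2.75% in Input. The eIF4E precipitate thus had the highest Eif4g3 share of the 3 groups, and the scaffold mix differed between groups by more than between replicates.

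**Figure D4:**
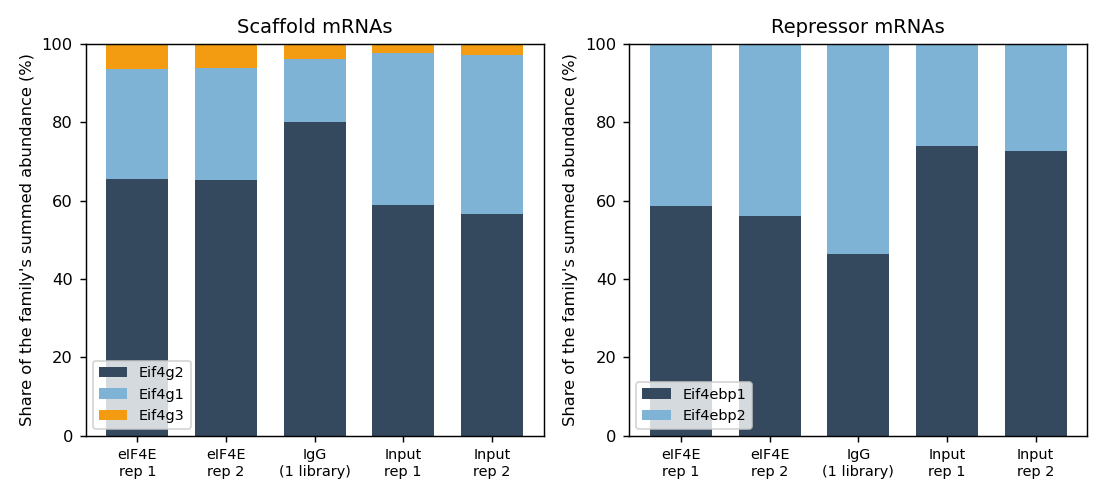
Share (%) of each mRNA in the summed abundance of the 3 scaffolds (left) and of the repressors (right) in each library, with eIF4E, IgG and Input from left to right. Eif4g2 takes 80.1% of the scaffold sum in IgG, and Eif4ebp1 takes 73.9% and 72.8% of the repressor sum in Input. Eif4ebp3 adds 0 to the repressor sum.

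Between the repressors, the ratio of Eif4ebp1 to Eif4ebp2 was 1.42 and 1.27 in eIF4E, 0.867 in IgG, and 2.83 and 2.67 in Input. Eif4ebp1 prevailed in the cortical lysate, and its lead was smaller in eIF4E and gone in IgG. The difference in log2 fold change between the pair was −1.01 for eIF4E against Input and 0.62 for eIF4E against IgG. With the standard errors of both genes combined, the 95% interval against Input was −1.33 to −0.70 (unadjusted p = 5.6e-04 from limma errors). Against IgG it was 0.23 to 1.00 (unadjusted p = 0.00994 from limma errors). The combined errors take both genes as independent and, at 0.12 and 0.15, were smaller than those of the ratio fit (0.15 and 0.19). Both intervals may thus be too narrow. The ratio fit to Eif4ebp2 gives p-values that are too small, since all genes share the deviation of Eif4ebp2. By that fit 41% of all other genes passed as rising and 29.8% as falling relative to Eif4ebp2 against Input, and 75.4% and 11.5% against IgG, so these shares may be too high. In that fit the difference against IgG was lost without eIF4E replicate 1 (log2 0.54, limma adjusted p = 0.0896).

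The scaffold sum exceeded the repressor sum 19.5 and 22.3 times in eIF4E, 7.83 times in IgG, and 2.64 and 2.17 times in Input. Most of the scaffold sum is Eif4g2, whose product does not bind eIF4E. Eif4g1 and Eif4g3 alone summed to 464.3 and 493.2 in eIF4E, 181.1 in IgG, and 108.1 and 102.4 in Input. The repressor sums were 69.01 and 63.61 in eIF4E, 116.0 in IgG, and 99.37 and 108.9 in Input. Without Eif4g2, the scaffold and repressor sums in Input were thus close. Relative to Eif4g1, Eif4ebp1 fell by 2.97 on the log2 scale over Input (SE 0.13, limma adjusted p = 1.1e-05) and by 1.91 over IgG (SE 0.16, limma adjusted p = 1.4e-04). Eif4ebp2 fell relative to Eif4g1 by 1.96 over Input (SE 0.12, limma adjusted p = 3.3e-05) and by 2.52 over IgG (SE 0.15, limma adjusted p = 4.4e-05). Most genes share these falls relative to Eif4g1: 88.7% of all others passed as lower against Input and 59.2% against IgG.

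Ratios to Eif4e, the mRNA of the antibody's target, are also given, since the products of all members except Eif4g2 bind eIF4E. The ratio of Eif4g1 to Eif4e was 0.309 and 0.313 in eIF4E, 1.23 in IgG, and 0.515 and 0.468 in Input. For Eif4ebp1 the ratio to Eif4e was 0.0329 and 0.0274 in eIF4E, 0.449 in IgG, and 0.371 and 0.387 in Input. Both ratios were lowest in the eIF4E libraries, where Eif4e was 6.26-fold its Input level and 10.4-fold its IgG level. Eif4e is thus no fixed reference, and the ratios follow it as well as the member. Eif4e itself measured 1230.61 and 1300.11 in eIF4E, 120.15 in IgG, and 197.83 and 204.96 in Input.

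By level, the order in eIF4E was Eif4g2 (904.7 ± 30.8, SD, n = 2), Eif4g1 (393.4 ± 19.2), Eif4g3 (85.3 ± 1.17), Eif4ebp1 (38.1 ± 3.46) and Eif4ebp2 (28.3 ± 0.361). In IgG it was Eif4g2, Eif4g1, Eif4ebp2, Eif4ebp1 and Eif4g3. The order in Input was Eif4g2 (144.3 ± 14.3, SD, n = 2), Eif4g1 (98.9 ± 4.25), Eif4ebp1 (76.3 ± 4.10), Eif4ebp2 (27.8 ± 2.62) and Eif4g3 (6.35 ± 0.233). Neighbours in the eIF4E and Input orders had no overlapping libraries. Eif4g3 changed place, standing above both repressors in eIF4E and last of the 5 expressed mRNAs in Input. It stood above 86.8% and 87.1% of genes tested in eIF4E, 72.5% in IgG, and 43.1% and 44.5% in Input. Eif4ebp1 stood above 75.9% and 73.7% of genes in eIF4E, 81.8% in IgG, and 84.7% and 85.8% in Input.

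Because eIF4E binds the cap on the first transcribed base, the start regions of the members in the RefSeq promoter table (GRCm38.p6) are shown, with 40 bases before the start, 20 from it on, and the first 5 transcribed bases in capitals. The table held no start of Eif4g2 or Eif4ebp1. Eif4ebp3 was left out of the search, so the starts shown are those of Eif4g1, Eif4g3 and Eif4ebp2.
Eif4g1, chr16:20672687-20672746, plus strand: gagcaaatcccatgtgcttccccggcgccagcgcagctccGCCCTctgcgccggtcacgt
Eif4g3, chr4:137993415-137993474, plus strand: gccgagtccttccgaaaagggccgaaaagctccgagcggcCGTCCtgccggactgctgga
Eif4ebp2, chr10:61452650-61452709, minus strand: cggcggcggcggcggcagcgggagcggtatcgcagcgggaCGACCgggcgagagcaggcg
A terminal oligopyrimidine (TOP) start, the mark of mRNAs most sensitive to 4E-BPs, was searched as a C on the first transcribed base followed by C or T at each of the next 4, on the transcribed strand only. None of the 3 had it, nor had a second Eif4g3 start 1 base further on, against 2.4% of the 12412 start windows of genes tested. No match says only that these letters are not at the starts shown. For Eif4g3 and Eif4ebp2 the windows lie inside the gene bounds given above (137991779 to 138207086 and 61428491 to 61452790). The Eif4g1 window spans its gene bound (20672720), but the start searched lies a few bases inside it. Starts at the gene bounds were thus not searched for any of the 3. G and C made up 78%, 70% and 70% of the first 50 transcribed bases in Eif4g1, Eif4g3 and Eif4ebp2, beside a median of 66% for genes tested.

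Genes with the most similar profile were sought by Euclidean distance between centred log2(value + 1) profiles over the 5 libraries, among 6127 named genes of above-median level. Closest to Eif4g1 were Zfp180 (0.134), Eed (0.14) and Armcx1 (0.163), and closest to Eif4g2 were Thoc1 (0.067), Amd1 (0.119) and Smim15 (0.145). For Eif4g3 they were Cops2 (0.211), Zfp617 (0.251) and Mphosph10 (0.326), for Eif4ebp1 Iah1 (0.081), Msi1 (0.095) and Ube2l6 (0.133), and for Eif4ebp2 Prpf6 (0.114), Mtmr4 (0.115) and Aatf (0.164). Thoc1, for example, had 32.25 and 33.65 in eIF4E, 25.55 in IgG, and 4.61 and 3.81 in Input, much the same shape as Eif4g2 at a far lower level. No other member was among the 3 nearest genes of any member.

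The rest of the pathway was read from lists. Of 14 other eIF4F partners, 10 were higher and 0 lower in eIF4E than in Input (limma, and 0 lower at an unadjusted p under 0.05), with a median log2 of 0.76 against 0.16 for all genes. The highest were the helicase gene Eif4a2 (6.34-fold) and Eif4e (6.26-fold), and the smallest rises past the threshold were those of the kinase gene Mknk1 (1.51-fold) and the helicase cofactor gene Eif4b (1.21-fold). The Eif4b rise was lost after median-of-ratios scaling (log2 −0.04), which also gave 9 higher and 4 lower. Eif4a2 had 248.39 and 265.82 in eIF4E, 401.71 in IgG, and 41.38 and 38.09 in Input, and so was highest in IgG. Against IgG the list had 8 higher and 6 lower.

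Subunits of eIF3 are contacted by eIF4G. Of 13 eIF3 mRNAs, 3 were higher and 7 lower than Input (median log2 −0.74), and Eif3a (9.58-fold) and Eif3m (2.33-fold) rose most, while Eif3f (0.175) and Eif3h (0.257) fell furthest. Against Input, rescaling to the same total gave 5 higher and 6 lower, quantile normalization 4 and 8, and median-of-ratios scaling 3 and 9. Against IgG 10 were higher and 1 lower. Eif3a had 106.93 and 113.08 in eIF4E, 147.35 in IgG, and 10.36 and 10.82 in Input.

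Of 7 genes for proteins that share the MIF4G fold of the scaffolds, 5 were higher and 1 lower than Input (median log2 1.24). Cwc22, a splicing factor gene, was 8.18-fold higher and Upf2, of nonsense-mediated decay, 7.30-fold. The lowest values past the threshold were those of Ctif (1.45-fold) and Mif4gd (0.83). Cwc22 had 76.62 and 79.72 in eIF4E, 322.91 in IgG, and 8.86 and 8.5 in Input, and Mif4gd was listed at 0 in IgG. Quantile normalization gave 4 higher and 2 lower. Against IgG 2 of the 7 were higher and 3 lower.

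Among 8 other genes whose products were reported to bind eIF4E or its complexes, 4 were higher and 1 lower than Input (median log2 0.47). Ddx3x, a helicase gene, rose 5.84-fold and Eif4enif1, the 4E-T repressor gene, 4.44-fold, with Lrpprc (1.89-fold) the smallest rise and Angel1 (0.475) the fall. Median-of-ratios scaling and quantile normalization each gave 4 higher and 4 lower. Against IgG 4 were higher and 3 lower.

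Of 13 genes for mTORC1 and the turnover of 4E-BPs, 4 were higher and 5 lower than Input (median log2 0.04). Cul3, a ubiquitin ligase scaffold gene, rose 7.02-fold and the S6 kinase gene Rps6kb1 5.20-fold, while the mTORC1 inhibitor gene Akt1s1 (0.403) and Klhl25 (0.549), the adaptor that in human cells marks free 4E-BP1 for degradation, fell furthest. Quantile normalization gave 3 higher and 8 lower, and rescaling to the same total 6 higher and 4 lower. Against IgG 6 were higher and 5 lower, or 3 and 5 after rescaling to the same total. These list counts are descriptions, read beside the 43.3% higher and 30.6% lower of all genes against Input, and 53.1% higher and 30.6% lower against IgG.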

How the data were processed

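Gene-level signal values, deposited by the authors as 1 column per library, were used as they stand: RSEM abundances on a linear scale with 2 decimals. Alignment with STAR 2.7.9a and quantification with RSEM 1.3.3 on mm10 are recorded in the submitters' processing notes. Libraries were made by Smart-seq2 per the labels' protocols, which primes on poly(A) and marks neither strand nor molecules. The annotation and options were not stated. Of 50161 rows, 286 repeated a gene ID with the same values and were dropped. Depth is unknown, so no counting interval is given. Among low values the step between libraries peaked within 1.15-fold for the eIF4E and Input libraries, and no clear peak was seen for IgG.

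Genes at or above 1 in at least 2 of 5 libraries (12769) were fitted as log2(value + 1) with limma 3.58.1 in R 4.3.3 (3 groups, eBayes with trend, two-sided, Benjamini-Hochberg over all genes tested, threshold 0.05, 2 residual degrees of freedom). All 5 members above 0 passed this filter. Ratio fits subtracted the log2 value of Eif4g1 or Eif4ebp2 from every gene in the same library. The deviation of the reference gene is then shared by all genes, so p-values are too small with Eif4ebp2, where the prior degrees of freedom were infinite, and errors combined from both members (chosen after seeing the data, unadjusted p) are printed instead. With Eif4g1 the deviation is shared as well and p-values may be too small. Calls on members were the same with combined errors. Those errors take both genes as independent, and their p-values are unadjusted. For both repressors relative to Eif4g1 they were also smaller than the errors of the fit, so the check cannot settle this.

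Members, lists and tests were chosen with earlier results of these data known. The members were always named, in each list the 2 genes at either end of the log2 fold changes among those past the threshold, and for each member the 3 nearest profiles. Alternatives covered scaling, pseudocount (0.1 and 10), filter, trend, the libraries fitted, a replicate block and leaving out each replicate. Coordinates and start regions are from RefSeq, GRCm38.p6, the assembly of mm10. One of the dorsal forebrain markers chosen at the outset is not reported here.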

Additional observations from a re-analysis of the deposited data

How the results depend on the processing

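Against Input, the rises of Eif4g1, Eif4g2 and Eif4g3 and the fall of Eif4ebp1 kept their direction and passed in all 14 alternatives, at log2 1.66 to 2.22, 2.32 to 2.88, 2.54 to 3.77 and −1.31 to −0.75, with adjusted p at most 0.0116. Eif4ebp2 against Input gave −0.29 after median-of-ratios scaling and 0.26 after rescaling to the same total. Against IgG, Eif4g1 (0.90 to 1.46), Eif4g3 (0.96 to 1.35), Eif4ebp1 (−0.84 to −0.40) and Eif4ebp2 (−1.46 to −0.92) kept their calls in all 13 alternatives. Eif4g2 against IgG gave −0.27 after quantile normalization, −0.03 after rescaling to the same total, 0.31 with adjusted p = 0.0957 without the filter and 0.31 with adjusted p = 0.0694 without trend, and 0.28 to 0.35 when each replicate was left out. For IgG against Input, Eif4ebp1 gave 0.09 after rescaling to the same total and −0.55 to −0.44 with each replicate left out, and without Input replicate 2 it missed the threshold (adjusted p = 0.0532).

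Eif4g3 relative to Eif4g1 against IgG gave −0.24 with a pseudocount of 10, and Eif4ebp1 relative to Eif4ebp2 against IgG gave 0.54 to 0.69 with each replicate left out. Among genes above 0 in all 5 libraries, 4389 were higher in eIF4E than in IgG (6785 with the filter used) and 4072 lower in IgG than in Input (6428). Genes tested numbered 10679 rather than 12769, and the opposite calls rose to 4248 and 5183 (3912 and 4823 with the filter used). The cause of these changes was not tested.

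Same-numbered eIF4E and Input libraries shared little (correlation of deviations 0.024, 2 pairs) and no label pairs them. With the replicate number as a block, 5401 genes were higher and 3749 lower in eIF4E than in Input (5535 and 3906 without it), and no call on a member changed.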
